A study of Mus musculus with 9 samples.

Results

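The 10 genes described here belong to the integrated stress response, the programme run by the transcription factor ATF4, and were measured by RNA sequencing in mouse embryonic stem (ES) cells. They were chosen by name (Atf4, Atf3, Atf5, Ddit3, Trib3, Asns, Chac1, Nupr1, Cebpb and Eif2ak3), and each name matched 1 of the 24044 named rows of the authors' table. The cells came from 3 lines, E14, v6.5 and Oct4 GiP, grown on gelatin without feeder cells for 2 weeks in 3 conditions, with 1 library per line and condition. In Paused cells the kinase mTor was inhibited with 200 nM INK128 over those 2 weeks. The 2i cells were grown in medium that usually holds inhibitors of the kinases MEK and GSK3, although the labels give no composition. Serum cells were the untreated comparison, and the medium that Paused cells were kept in is not spelled out in the labels. Values are FPKM, fragments per length of transcript and per library size, and the read depth of a library is unknown.

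Stress kinases such as PERK, encoded by Eif2ak3, and GCN2 phosphorylate the initiation factor eIF2. General translation then slows, while ATF4 is made from an mRNA whose upstream reading frames normally keep it silent. ATF4 pairs with C/EBP proteins on composite C/EBP-ATF elements and switches on genes of amino acid synthesis and uptake, tRNA charging and, under lasting stress, cell death. In other cell types mTor complex 1 is also known to raise ATF4 output without eIF2 phosphorylation. Much of this control acts on translation, which RNA levels do not show.

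The libraries expressed the markers of ES cells, at levels that differed between them. Nanog had 158, 72.5 and 200.3 FPKM in Paused, 329, 371 and 383 in 2i and 239, 42.8 and 185 in Serum, in the order E14, v6.5 and Oct4 GiP. The v6.5 Serum library stood apart, also with 25.2 FPKM of Esrrb against 156 and 144 and 99.8 of Zfp42 against 600 and 722 in E14 and Oct4 GiP Serum. Calls among the 10 genes that change without it are named below. Nanog was called higher (1.53 ± 0.46) and Utf1 lower (-2.25 ± 0.11) in 2i than in Serum. Summed FPKM over 6 ES cell markers ran from 2767 to 3965 in Paused, from 2246 to 2756 in 2i and from 2312 to 3423 in Serum, with Pou5f1 the largest part. Over 7 fibroblast markers the sum was 35.9 to 53.4 in Paused, 53.6 to 284 in 2i and 83.4 to 279.8 in Serum, with Col1a2 and Col3a1 under 1 FPKM in all libraries. In Serum Vim had 142, 51.7 and 81.6 FPKM and Tagln 114, 22.5 and 55.8 FPKM. Of 5 tested fibroblast markers 4 were called lower than in Serum, both in Paused and in 2i, and 0 higher. Of all tested genes 10.5% and 18.9% were called lower in these comparisons. Vim, which ES cells also express, made up 281 of the 284 in the E14 2i library. The sum over 7 trophoblast markers was 27.0 to 48.9 in Paused, 48.6 to 73.9 in 2i and 63.4 to 315 in Serum, with Elf5 under 1 FPKM throughout. In Serum Krt8 had 161, 24.4 and 62.6 FPKM and Krt18 had 108, 18.7 and 36.4 FPKM. Of 5 tested trophoblast markers 3 were called lower in Paused and 2 in 2i than in Serum, and 0 higher. For 7 endoderm markers the sum was 25.7 to 70.8, 92.6 to 201 and 90.01 to 124 in the same order, with Gata6, Sox17, Foxa2 and Afp under 1 FPKM in all libraries. Sparc made up 196 of the 201 in the v6.5 2i library. These sums moved with the conditions, and their part in the results below was not tested. In bulk RNA, fewer cells of a type and less RNA per cell cannot be told apart.

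The promoters of 5 of the 10 genes held the core of a C/EBP-ATF element, which is why their sequences are shown. The search covered TGATGNAA on both strands, from 250 bases before to 50 after the start site in RefSeq (GRCm38.p6, the assembly of mm10), and all 10 genes had an entry. Of all 27025 genes with a RefSeq promoter 4.51% held a match. The windows run 5′ to 3′ on the strand of the gene, and capitals mark the match; TTGCATCA is the same element read on the other strand.
Nupr1 (chr7:126625527-126625626, minus strand, match 110 to 103 bases before the start): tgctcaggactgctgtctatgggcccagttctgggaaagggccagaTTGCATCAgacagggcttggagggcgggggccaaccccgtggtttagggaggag
Atf3 (chr1:191183390-191183489, minus strand, match 110 to 103 bases before the start): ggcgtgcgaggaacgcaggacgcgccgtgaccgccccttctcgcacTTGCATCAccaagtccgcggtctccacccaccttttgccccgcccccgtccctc
Chac1 (chr2:119351003-119351102, plus strand, match 193 to 186 bases before the start): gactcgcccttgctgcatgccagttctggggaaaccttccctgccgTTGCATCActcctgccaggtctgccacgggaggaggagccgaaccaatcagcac
Asns (chr6:7693210-7693278, minus strand, match 23 to 16 bases before the start): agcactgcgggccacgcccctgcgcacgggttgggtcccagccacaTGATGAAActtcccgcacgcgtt
Trib3 (chr2:152344028-152344057, minus strand, match 15 to 22 bases after the start): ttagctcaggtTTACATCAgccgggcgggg
In Nupr1, Atf3 and Chac1 the 8 bases were identical. The other 5 genes, Atf4, Atf5, Ddit3, Cebpb and Eif2ak3, had no match in this window, which says nothing about more distant sites. The gene positions given below are from GENCODE, whose starts can differ from those in RefSeq. The windows of Atf3 and Nupr1 and the match of Asns lie inside those positions, and the match of Trib3 lies outside. Of 41 other known ATF4 targets 32 had an entry and 12 of these held a match, against 0 of 17 endoplasmic reticulum chaperone genes. A match was also held by 1 of 13 genes of eIF2 signalling, 1 of 16 bZIP transcription factors and 0 of 7 mitochondrial chaperones and proteases. The shares of genes called differed little with and without a match. Outside the 10 genes, 24.7% of 259 tested genes with a match were called higher in 2i than in Serum, against 21.7% of 9487 without, and 10.4% against 11.0% were called lower in Paused than in Serum.

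**Figure D1:**
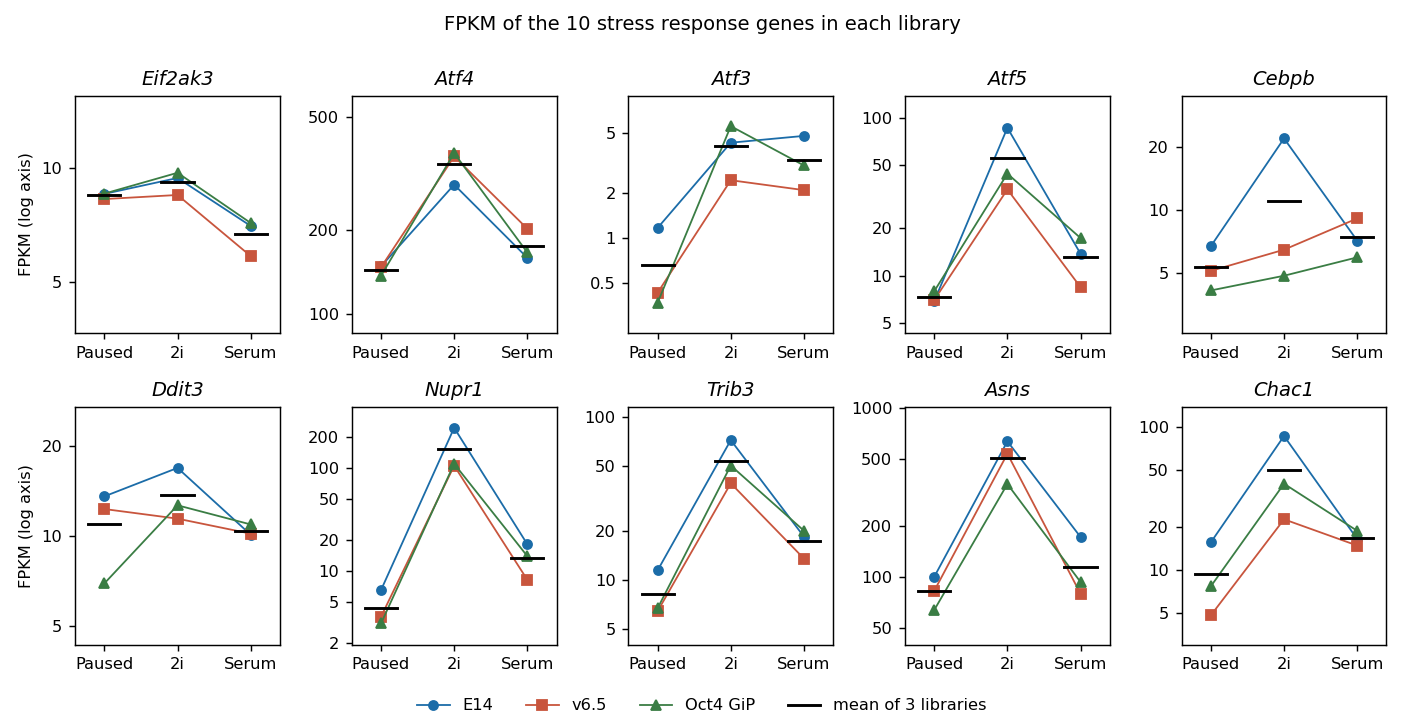
FPKM on a log axis of the 10 genes in each library, with the conditions along the x axis, 1 symbol per cell line, a line joining the libraries of a cell line, and a black bar at the mean of 3 libraries. Nupr1, Trib3, Asns, Atf4 and Atf5 peak in 2i in every line, whereas Ddit3 and Cebpb in Paused overlap both other conditions.

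All 10 genes reached 1 FPKM in at least 3 of the 9 libraries and entered the test of 12711 genes. Limma-trend was fitted to log2(FPKM + 1) with the cell line as a blocking term, and a gene was called where its Benjamini-Hochberg adjusted p over all tested genes was under 0.05. Fold changes are on that scale, where changes of low genes come out too small, and are given ± their standard error. Paused against Serum, 2i against Serum and Paused against 2i share libraries, so they are not independent of each other. Over the 3 conditions the F test called 54.8% of all tested genes and 8 of the 10 genes, all but Ddit3 (adjusted p = 0.31) and Cebpb (adjusted p = 0.29). In every line 5 of the 10 genes, Atf4, Atf5, Trib3, Chac1 and Nupr1, stood highest in 2i and lowest in Paused, an order found in 7.76% of tested genes.

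ES cells in 2i carried more RNA of the ATF4 programme than ES cells in Serum. Of the 10 genes 7 were called higher and 0 lower, against 21.7% and 18.9% of all tested genes. The median log2 fold change of the 10 genes was 1.14, beside 0.02 for all tested genes. Nupr1, Asns, Atf5, Trib3, Chac1, Atf4 and Eif2ak3 rose, while Atf3, Ddit3 and Cebpb did not pass the test. Between 2i and Serum 8 of the 10 genes did not overlap and were higher in 2i, as were 25.6% of tested genes.

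Atf4, the regulator itself (chromosome 15, 80255184 to 80257541), had 289, 363 and 373 FPKM in 2i against 159, 201 and 166 FPKM in Serum, in the order E14, v6.5 and Oct4 GiP that is kept throughout. The lowest 2i library lay above the highest Serum library, and the mean was 342 ± 46.3 FPKM in 2i against 175 ± 22.8 in Serum (SD, n = 3 each; log2 fold change 0.96 ± 0.11, limma-trend adjusted p = 0.0021).

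Nupr1, a small stress-induced chromatin protein (chromosome 7, 126623249 to 126630861), had the largest fold change of the 10. It stood at 246, 106 and 110.1 FPKM in 2i against 18.2, 8.23 and 13.96 FPKM in Serum. The FPKM ratio of 2i to Serum was 13.5, 12.8 and 7.89 in the 3 lines (log2 fold change 3.37 ± 0.19, limma-trend adjusted p = 0.00056). Asns, the asparagine synthetase (chromosome 6, 7675169 to 7693254), had 634, 535 and 355 FPKM in 2i against 172, 79.6 and 93.4 FPKM in Serum. That made Asns the most abundant of the 10 in 2i, also above Atf4 in E14 and v6.5, and its log2 fold change was 2.17 ± 0.18 (adjusted p = 0.0010).

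Atf5, a relative of ATF4 that is itself translated under eIF2 phosphorylation (chromosome 7, 44812256 to 44816658), had 86.4, 35.1 and 44.2 FPKM in 2i against 13.7, 8.43 and 17.3 FPKM in Serum. Its groups did not overlap, and the E14 library in 2i stood far above the other 2i libraries (log2 fold change 1.94 ± 0.28, adjusted p = 0.0039). On the opposite strand Atf5 overlaps Nup62 and Il4i1, whose joined row stood at 119 ± 5.91 FPKM in 2i and 136 ± 1.55 FPKM in Serum (SD, n = 3 each). No source used here says that fragments were counted by strand, so such overlaps leave some uncertainty.

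Trib3, a pseudokinase that restrains ATF4 and AKT signalling (chromosome 2, 152337422 to 152344032), had 72.1, 39.2 and 50.4 FPKM in 2i against 18.5, 13.6 and 20.1 FPKM in Serum. The ranges were well apart, with a log2 fold change of 1.55 ± 0.16 (adjusted p = 0.0016). Chac1, which degrades glutathione (chromosome 2, 119351229 to 119354381), had 86.8, 22.7 and 40.3 FPKM in 2i against 16.6, 14.9 and 18.9 FPKM in Serum. Its 2i libraries spread most between lines and its Serum libraries least (log2 fold change 1.32 ± 0.32, adjusted p = 0.019). The call for Chac1 was lost without the E14 2i, the Oct4 GiP Serum or the Oct4 GiP 2i library, with adjusted p up to 0.058 over the 9 libraries left out in turn (lowest 0.013). Leaving out the whole Oct4 GiP line also ended it (limma-trend adjusted p = 0.11).

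Eif2ak3, the kinase PERK (chromosome 6, 70844515 to 70905245), rose least of the 7, to 9.43, 8.50 and 9.74 FPKM in 2i against 7.04, 5.86 and 7.17 FPKM in Serum (log2 fold change 0.41 ± 0.09, adjusted p = 0.014). The groups did not overlap, but the call was lost without the v6.5 Serum, the Oct4 GiP Serum or the Oct4 GiP 2i library, with adjusted p from 0.025 to 0.058 over the 9 libraries left out in turn. Leaving out all libraries of any 1 line ended the call too (limma-trend adjusted p up to 0.12). The call also rested on the scale. In the authors' second set of columns, which multiplies the FPKM of each library by 1 constant, Eif2ak3 stood at 0.09 (adjusted p = 0.62), while the other 6 calls held and 9.76% of all tested genes were called higher.

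**Figure D2:**
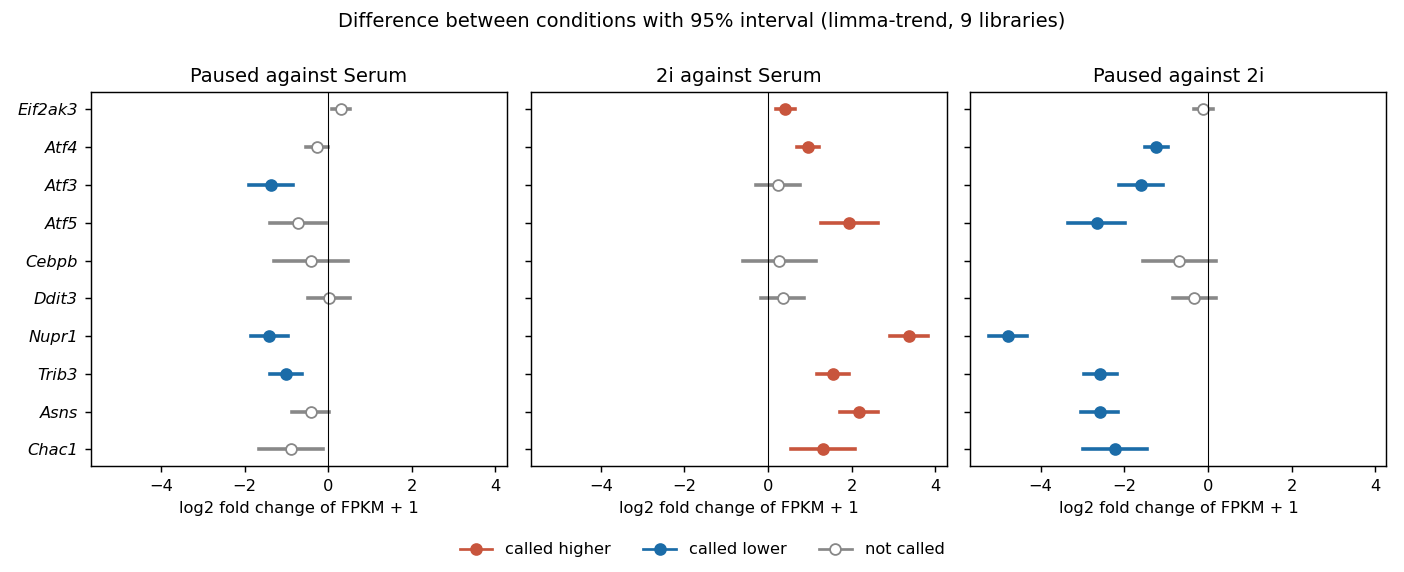
Log2 fold change of FPKM + 1 for the 10 genes with its 95% interval from limma-trend over 9 libraries, for Paused against Serum, 2i against Serum and Paused against 2i, with filled points for called genes. In 2i against Serum 7 genes lie above 0 as called, in Paused against 2i 7 lie below 0 as called, and in Paused against Serum 3 do.

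Paused cells, compared with 2i cells, held far less of these transcripts. Of the 10 genes 7 were called lower and 0 higher, against 24.6% and 19.8% of all tested genes. The median log2 fold change of the 10 genes was -1.91, beside -0.03 for all tested genes. Nupr1 fell by 4.78 on the log2 scale (SE 0.19, adjusted p = 0.00026), to 6.52, 3.60 and 3.09 FPKM in Paused against 246, 106 and 110.1 FPKM in 2i, and Paused cells kept 0.0265, 0.0341 and 0.0281 of the 2i level in the 3 lines. The other falls were those of Atf5 (-2.66 ± 0.28), Asns (-2.59 ± 0.18), Trib3 (-2.57 ± 0.16), Chac1 (-2.22 ± 0.32), Atf3 (-1.60 ± 0.22) and Atf4 (-1.23 ± 0.11). All 7 genes had no overlap between Paused and 2i, as did 28.3% of tested genes in this direction, and all 7 calls held without any single library and without all libraries of any single line. In the authors' second set of columns all 10 genes were called lower, as were 54.5% of tested genes.

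The fall of Asns was alike in the 3 lines. Asns had 100.3, 82.9 and 63.8 FPKM in Paused against 634, 535 and 355 FPKM in 2i, so that Paused cells kept 0.158, 0.155 and 0.180 of the 2i level. Chac1 likewise kept 0.181, 0.213 and 0.192, although its levels spread widely between lines in both conditions. Atf4 kept 0.513, 0.404 and 0.367, and in each line Nupr1, Asns, Trib3, Chac1, Atf5 and Atf3 kept a smaller share than Atf4.

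Set against Serum, Paused cells differed less, and 3 genes were called lower and 0 higher. The shares of all tested genes were 10.5% lower and 7.64% higher. The median log2 fold change of the 10 genes was -0.57, beside -0.01 for all tested genes. Libraries did not overlap in 5 genes that were lower in Paused, as in 21.3% of tested genes, and in 1 gene, Eif2ak3, that was higher, as in 17.3% of tested genes. Nupr1 had 6.52, 3.60 and 3.09 FPKM in Paused against 18.2, 8.23 and 13.96 FPKM in Serum, and fell by 1.41 on the log2 scale (SE 0.19, limma-trend adjusted p = 0.014).

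Atf3, a factor of the same bZIP family that is induced early by many stresses (chromosome 1, 191170296 to 191218039), had 1.16, 0.429 and 0.368 FPKM in Paused. It had 4.78, 2.08 and 3.03 FPKM in Serum and 4.30, 2.42 and 5.55 FPKM in 2i. Paused was the only condition of the 3 in which a library of Atf3 was under 1 FPKM, and Serum and 2i overlapped (Paused against Serum -1.36 ± 0.22, adjusted p = 0.016; 2i against Serum 0.24 ± 0.22, adjusted p = 0.40). Trib3 had 11.5, 6.46 and 6.74 FPKM in Paused against 18.5, 13.6 and 20.1 FPKM in Serum, a fall of 1.02 on the log2 scale in the fit (-1.02 ± 0.16, adjusted p = 0.016). In each line all 3 genes were lower in Paused.

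These 3 calls needed all 3 lines in the fit. Leaving out the E14, v6.5 or Oct4 GiP Paused library, or the Oct4 GiP Serum library, ended all 3, and so did leaving out all libraries of any 1 line. Atf3 was also lost without the E14 Serum library and Trib3 without the v6.5 Serum library. Over the 9 libraries left out in turn the adjusted p ran from 0.012 to 0.074 for Nupr1, from 0.014 to 0.076 for Atf3 and from 0.016 to 0.074 for Trib3, and the fold changes stayed below 0 (-1.57 to -1.18, -1.51 to -1.15 and -1.20 to -0.84). Without the cell line as a block Nupr1 was not called (limma-trend adjusted p = 0.055). Losses of this kind were not particular to the 3 genes. Over all tested genes 1340 were called lower with all 9 libraries, and from 1 to 1854 with a library or a line left out.

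Atf4 itself had 148, 147 and 137 FPKM in Paused against 159, 201 and 166 FPKM in Serum. Its groups did not overlap, yet the difference did not pass the threshold (-0.28 ± 0.11, 95% interval -0.54 to -0.01, adjusted p = 0.13). Atf5 had 6.89, 7.004 and 7.96 FPKM in Paused against 13.7, 8.43 and 17.3 FPKM in Serum (-0.72 ± 0.28, adjusted p = 0.12). The v6.5 line had the smallest difference in Atf5, and without the E14 2i library the adjusted p was 0.038, and the cause was not tested. Chac1 differed by -0.07, -1.44 and -1.19 in the 3 lines (adjusted p = 0.094, and 0.040 without the E14 Serum library). Asns differed by -0.78, 0.06 and -0.54 (adjusted p = 0.16, and 0.039 without the v6.5 Serum library). These 4 genes therefore stayed uncalled with all 9 libraries in the fit. In the authors' second set of columns all 10 genes were called lower in Paused than in Serum, and so were 76.9% of all tested genes, with medians of -1.50 for the 10 and -0.88 for all.

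Ddit3 and Cebpb passed none of the 3 comparisons. Ddit3 encodes CHOP, the factor tied to cell death under lasting stress (chromosome 10, 127290774 to 127296288). It had 13.5, 12.3 and 6.92 FPKM in Paused, 16.8, 11.4 and 12.6 FPKM in 2i and 10.1, 10.2 and 10.9 FPKM in Serum. Neither Paused against Serum (0.02 ± 0.21, 95% interval -0.49 to 0.53, adjusted p = 0.96) nor 2i against Serum (0.35 ± 0.21, 95% interval -0.17 to 0.86, adjusted p = 0.23) nor Paused against 2i (-0.33 ± 0.21, 95% interval -0.84 to 0.19, adjusted p = 0.25) passed the test. The 2i libraries all lay above the Serum libraries, though by little. Relative to Serum, Paused was higher in E14 and v6.5 and lower in Oct4 GiP. Ddit3 overlaps Mars, a tRNA synthetase gene on the opposite strand, which stood at 92.7 ± 3.39 FPKM in Paused, 136 ± 35.9 in 2i and 106 ± 5.06 in Serum (SD, n = 3 each).

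Cebpb, a C/EBP partner of ATF4 (chromosome 2, 167688915 to 167690418), had 6.74, 5.14 and 4.14 FPKM in Paused, 21.96, 6.48 and 4.87 FPKM in 2i and 7.16, 9.13 and 5.96 FPKM in Serum. In 2i against Serum the E14 line moved by 1.49 on the log2 scale, and v6.5 and Oct4 GiP by -0.44 and -0.25, so the mean of 0.27 ± 0.37 describes none of the lines (95% interval -0.61 to 1.15, adjusted p = 0.58). Paused against Serum gave -0.41 ± 0.37 for Cebpb (95% interval -1.29 to 0.47, adjusted p = 0.45). The E14 2i library was the highest of the 9 for 7 of the 10 genes, against 19.0% of tested genes, and the Oct4 GiP 2i library for the other 3. The same E14 2i library had the highest Vim level of the 9, and the part of this in the results was not tested. For Eif2ak3 the level in Paused was 8.56, 8.30 and 8.58 FPKM, above each Serum library and below the 2i library of the same line. Its difference from Serum was 0.31 ± 0.09 (95% interval 0.09 to 0.52, adjusted p = 0.063), and on the authors' scale it turned to -0.56. Against 2i it differed by -0.11 ± 0.09 (95% interval -0.33 to 0.11, adjusted p = 0.37).

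**Figure D3:**
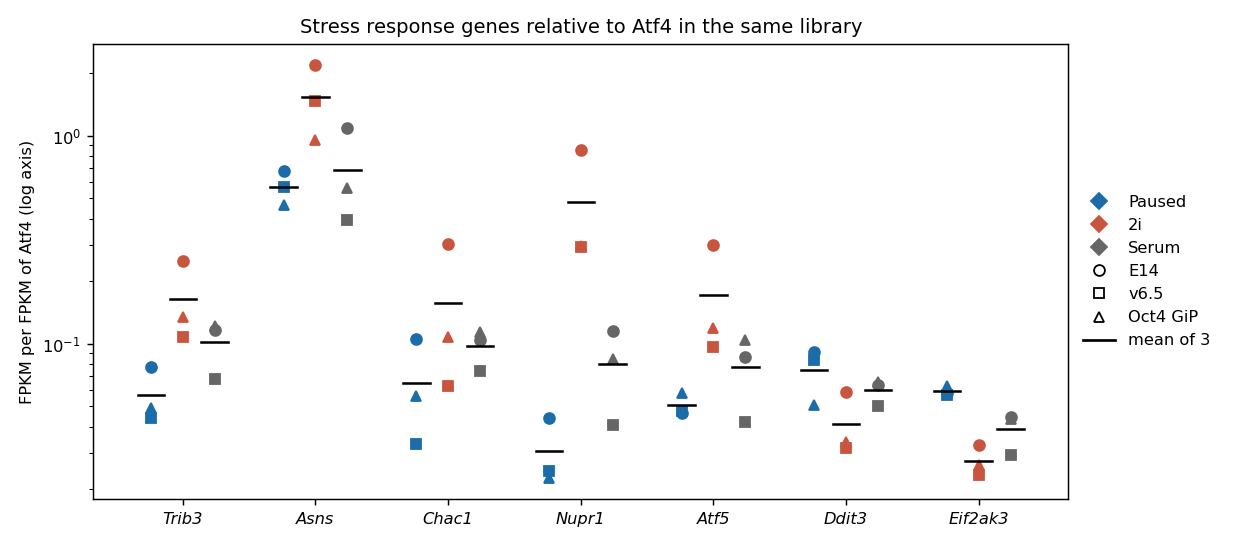
FPKM of 7 genes divided by the FPKM of Atf4 in the same library, on a log axis, with the conditions side by side, 1 symbol per cell line and a black bar at the mean of 3. On average Nupr1, Trib3, Asns, Atf5 and Chac1 are highest in 2i relative to Atf4, whereas Ddit3 and Eif2ak3 are lowest there. For Nupr1 in 2i the v6.5 and Oct4 GiP points coincide.

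A ratio within a library does not depend on how libraries were scaled, so the genes were also set against Atf4. For each FPKM of Atf4 there were 0.0304 ± 0.0119 FPKM of Nupr1 in Paused, 0.479 ± 0.323 in 2i and 0.0799 ± 0.0371 in Serum (SD, n = 3). Trib3 had ratios of 0.0569 ± 0.0181, 0.164 ± 0.0754 and 0.102 ± 0.0298 in the same order of conditions. In each line the ratio of Nupr1 and of Trib3 was highest in 2i and lowest in Paused. For Asns the ratio was 0.569 ± 0.106 in Paused, 1.54 ± 0.627 in 2i and 0.681 ± 0.360 in Serum, and in v6.5 Paused lay above Serum. Eif2ak3 went the other way, with 0.0590 ± 0.0032 in Paused, 0.0274 ± 0.0048 in 2i and 0.0389 ± 0.0085 in Serum, and in each line Paused was highest and 2i lowest, although across lines 2i and Serum overlapped. Ddit3 also had its lowest ratio in 2i in each line. The ratio of Atf3 was highest in Serum in each line, with a mean of 0.0196 against 0.0121 in 2i. Mean ratios of Atf5 (0.0508, 0.172 and 0.0776) and Chac1 (0.0651, 0.157 and 0.0973) in Paused, 2i and Serum were also highest in 2i. However, in v6.5 the ratio of Chac1 was higher in Serum (0.0739) than in 2i (0.0625). In the same line the ratio of Atf5 was lower in Serum (0.0419) than in Paused (0.0477). Cebpb did not keep the order of Nupr1 and Trib3 either. These ratios are descriptions with no test.

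The other genes of the pathway were read from lists of known roles. Of 41 other ATF4 targets 40 were tested, and in 2i against Serum 25 were called higher and 0 lower, with a median of 0.72. Of all tested genes 21.7% were called higher and 18.9% lower. Gdf15, a secreted stress cytokine, rose to 40.2 ± 11.2 FPKM in 2i against 3.12 ± 1.41 FPKM in Serum (3.35 ± 0.23, adjusted p = 0.00079). The angiogenic factor Vegfa rose by 1.97 ± 0.15, the alanine transaminase Gpt2 by 1.76 ± 0.26 and the arginine transporter Slc7a1 by 1.75 ± 0.17. In the authors' second set of columns 16 of the 40 were called higher and 4 lower. Of all 12711 tested genes 9.76% were called higher there and 4538 lower. Without the 3 Oct4 GiP libraries 14 of the 40 were called higher.

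In Paused against 2i 32 of the same 40 genes were called lower and 2 higher, with a median of -1.33. Of all tested genes 24.6% were called lower and 19.8% higher. Gdf15 fell by 3.97 on the log2 scale and Ddit4, an inhibitor of mTor complex 1, by 3.52, to 7.41 ± 3.28 FPKM in Paused against 93.2 ± 33.3 FPKM in 2i. The 2 that rose, Slc38a2 (0.80 ± 0.22) and Slc7a3 (0.44 ± 0.14), are amino acid transporters, named after their values were seen, and neither was called without any 1 of the 3 Paused libraries. On the authors' scale neither was called, with Slc38a2 at 0.25 (adjusted p = 0.42) and Slc7a3 turned to -0.12 (adjusted p = 0.61). In Paused against Serum 10 were called lower and 0 higher, with a median of -0.33. Of all tested genes 10.5% were called lower and 7.64% higher. Mthfd2, a mitochondrial folate enzyme, fell to 24.7 ± 3.80 FPKM in Paused against 63.5 ± 9.16 FPKM in Serum (-1.33 ± 0.28, adjusted p = 0.028). The count of 10 became 0 without any 1 of the 3 Paused libraries or the Oct4 GiP Serum library, 4 without the v6.5 Serum library, 18 without the E14 2i library and 0 without any of the lines. It was 5 without the cell line as a block. Over all tested genes the count called lower ran from 1 to 1854 with a library or a line left out, and was 976 without the block.

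**Figure D4:**
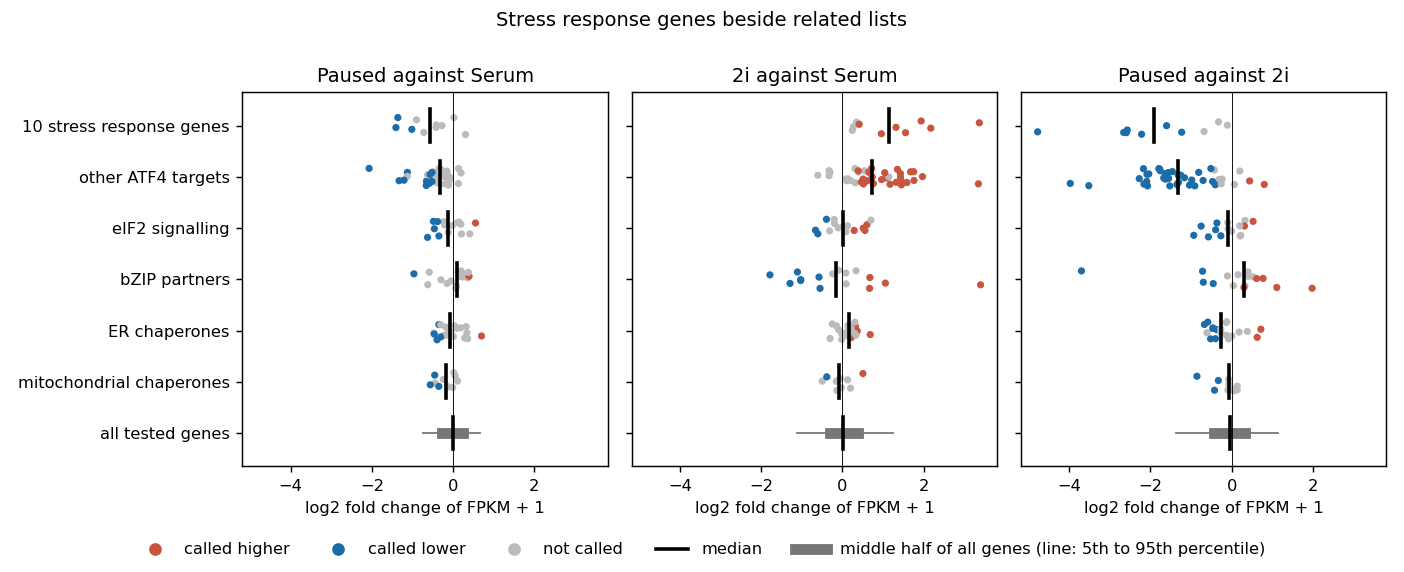
Log2 fold change of FPKM + 1 of each tested gene of 6 lists, 1 point per gene, coloured by call, with the median as a black bar and all 12711 tested genes as a grey bar. In 2i against Serum the medians of the 10 genes and of the other ATF4 targets are 1.14 and 0.72, whereas those of the other 4 lists lie between -0.17 and 0.16.

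Lists of neighbouring arms of the stress response had medians nearer 0 in 2i against Serum. Of 15 tested genes of eIF2 signalling 4 were called higher and 3 lower in 2i against Serum, with a median of 0.03, the kinase GCN2 (Eif2ak4) at 0.60 ± 0.09 and eIF2 alpha (Eif2s1) at -0.66 ± 0.09. These shares are near the 21.7% and 18.9% of all tested genes, and on the authors' scale they were 0 higher and 7 lower. The 4 became 2 without the E14 Serum, the v6.5 Serum or the v6.5 2i library, and 1 without the Oct4 GiP line. In Paused against Serum 7.64% of all tested genes were called higher and 10.5% lower. Of the eIF2 genes 1 was called higher, the RNA-sensing kinase PKR (Eif2ak2), at 390 ± 31.2 FPKM in Paused against 267 ± 29.1 FPKM in Serum. That rise of 0.55 ± 0.08 in FPKM was -0.38 on the authors' scale. In the same comparison 5 fell, among them the eIF2B subunits Eif2b4 (-0.63 ± 0.09), Eif2b1 (-0.48 ± 0.10) and Eif2b2 (-0.46 ± 0.08), which recharge eIF2 with GTP. These counts of 1 and 5 became 0 and 0 without any 1 line, any 1 Paused library or the Oct4 GiP Serum library. Only 1 fell without the E14 or the v6.5 Serum library, and 3 fell without the Oct4 GiP 2i library. Over all tested genes the counts also ran down to 3 higher and 1 lower with a library or a line left out.

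Chaperones of the endoplasmic reticulum, the arm run by ATF6 and XBP1, numbered 20 tested. In 2i against Serum 4 were called higher and 0 lower, with a median of 0.16, and Sel1l of the degradation machinery at 0.68 ± 0.09. That share is close to the 21.7% of all tested genes, and the counts were 0 higher and 4 lower on the authors' scale and 1 higher with no replicate block. Paused against Serum had 1 higher, Dnajb9 (0.70 ± 0.10 in FPKM, -0.14 on the authors' scale), and 4 lower, among them Pdia6 (-0.46 ± 0.07). Of all tested genes 7.64% were called higher and 10.5% lower in that comparison. In 2i against Serum 21.7% of all tested genes were called higher and 18.9% lower (9.76% and 4538 of 12711 on the authors' scale). Of 10 mitochondrial chaperones and proteases 1 was called higher and 1 lower in 2i against Serum, with a median of -0.09 (0 and 4 on the authors' scale), and 0 higher and 3 lower in Paused against Serum. Among 16 tested bZIP partners 4 were called higher and 7 lower in 2i against Serum, with a median of -0.17 (2 and 9 on the authors' scale). Jdp2, a repressor of the AP-1 family, had the largest change there, at 33.0 ± 11.8 FPKM in 2i against 2.24 ± 1.17 FPKM in Serum (3.40 ± 0.23, adjusted p = 0.00077), while Junb (-1.78 ± 0.20) and Jun (-1.29 ± 0.20) fell. In Paused against 2i Jdp2 fell by 3.70 on the log2 scale. In that comparison 8 of the 20 endoplasmic reticulum chaperones were called lower and 2 higher, with a median of -0.27. Of eIF2 signalling genes 6 were lower and 2 higher, of the mitochondrial list 3 and 0, and of bZIP partners 4 and 5. Of all tested genes 24.6% were called lower and 19.8% higher. With any 1 library left out the 8 became 4 to 7 and the 6 became 1 to 5. These small counts changed when single libraries were left out, as did the counts over all tested genes. With a library or a line left out, those ran from 3 to 1369 higher and from 1 to 1854 lower in Paused against Serum. For 2i against Serum they ran from 715 to 2747 higher and from 554 to 2689 lower. In Paused against Serum the chaperone counts of 4 and 3 lower were both 0 without any 1 of the 3 Paused libraries or the Oct4 GiP Serum library. They were 0 and 1 without the E14 Serum library, 1 and 1 without the v6.5 Serum library and 2 and 1 without the Oct4 GiP 2i library, and the mitochondrial count was 5 without the E14 2i library. In 2i against Serum the 7 bZIP partners called lower became 3 to 5 with any 1 of the 9 libraries left out, and the 4 endoplasmic reticulum chaperones called higher became 1 or 2 without any 1 library other than E14 2i and v6.5 Paused.

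The genes whose levels over the 9 libraries were most like those of a member were found by Pearson's r on log2(FPKM + 1), among tested genes outside the 10. The libraries share 3 lines and 3 conditions, so r is a description with no p. For Trib3 they were Frmd4b (0.98), Pck2 (0.98) and Apobec1 (0.98), and Pck2, the mitochondrial PEP carboxykinase, averaged 5.82 FPKM in Paused, 76.4 in 2i and 11.4 in Serum. For Atf5 the first was Shmt2 (0.99), a mitochondrial serine enzyme that is also among the ATF4 targets listed. Atf4 was most like Aamdc, H6pd and Dynlt1b (0.99, 0.99 and 0.98), and Nupr1 most like Anxa4, Wwtr1 and Cstb (each 0.99). Among the 10 genes themselves the closest pair was Trib3 with Nupr1 (0.99), and the least alike was Cebpb with Eif2ak3 (0.01).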

How the data were processed

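The authors deposited 1 table of 29801 rows with 2 columns per library for 9 libraries. The first column of each is FPKM from the authors' run of Cuffnorm on mm10, per the submitters' processing notes. The deposited second column, headed as normalized expression, is a signal equal to that FPKM times 1 constant per library (1.81 to 3.74), and no source used here says where the constants come from. The constants differed between conditions, so they shift nearly all genes together. With them the median log2 fold change over all tested genes was -0.88 in Paused against Serum, -0.33 in 2i against Serum and -0.56 in Paused against 2i. In FPKM these medians were -0.01, 0.02 and -0.03. The aligner, annotation and strand settings are likewise not given in the sources used here. As the table holds no counts, depth and counting error are unknown. Each library started from 250 ng RNA with ERCC spike-in, per the labels' protocols. After 5644 unnamed rows (18.9%) and 113 identical repeats were left out, 24044 rows remained, of which 12711 with FPKM of at least 1 in at least 3 libraries were tested.

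Limma-trend (limma 3.58.1, R 4.3.3) was run on log2(FPKM + 1) with all 9 libraries and the cell line as a block, since each labelled line has 1 library per condition. Deviations from condition means correlated at -0.0008 to 0.40 for 2 libraries from 1 line and at -0.24 to 0.094 for 2 from different lines. The p-values set the mean difference between conditions against the spread left after line and condition, moderated across genes. With 1 library per line and condition, that spread mixes differences between these 3 lines with variation between libraries. Whether the libraries of a line came from separate cultures is not stated. The fit was also tried on simulated data. These had independent noise and the same line shift in every condition, so they did not cover lines that respond differently.

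The genes and lists were chosen with earlier results of these data known. The genes named are the 10 members, up to 4 per list and comparison with the largest change among those called, and the 3 most like each member with a mean FPKM of at least 5, and not all of them are printed. Alternatives were pseudocounts of 0.1 and 0.5, no filter, a filter at 5 FPKM, no block, median centring, the authors' second columns, only the 6 libraries compared, and each library or line left out. Positions of genes are from GENCODE M21 on GRCm38, the assembly of mm10, and promoters from RefSeq.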

Additional observations from a re-analysis of the deposited data

How the results depend on the processing

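The 7 calls in Paused against 2i held under each alternative in which the gene was tested (Atf3 is not tested with the filter at 5 FPKM), and so did 5 of the 7 in 2i against Serum (Atf4, Atf5, Trib3, Asns and Nupr1). Chac1 and Eif2ak3 were lost with only the 6 libraries compared (adjusted p = 0.064 and 0.067), and Chac1 without the replicate block of cell lines (adjusted p = 0.073). The authors' second columns multiply each library by a constant. With them the genes called higher and lower numbered 48 and 9779 in Paused against Serum, 1240 and 4538 in 2i against Serum, and 789 and 6922 in Paused against 2i, the F test called 10894, and 10 members were lower in Paused against Serum. Of the 10 genes, Ddit3 (-0.88) and Eif2ak3 (-0.56) turned negative with them in Paused against Serum, and Atf3 (-0.05) and Cebpb (-0.08) in 2i against Serum. Atf3 and Cebpb were called on neither scale there. Genes of the lists that turned included Eif2ak2 (-0.38), Dnajb9 (-0.14) and Atf2 (-0.52) in Paused against Serum. They also included Pdia3 (-0.15), Creld2 (-0.0456) and Ppp1r15a (-0.07) in 2i against Serum, and Eif2ak2 (-0.0372) and Slc7a3 (-0.12) in Paused against 2i. Genes called higher in Paused against Serum numbered 612 with no filter and 626 with no replicate block, and with only the 6 libraries compared 1645 higher and 1340 lower were called in 2i against Serum; the cause was not tested. With a library or a line left out, the genes called ranged from 3 to 1369 higher and 1 to 1854 lower in Paused against Serum, from 715 to 2747 and 554 to 2689 in 2i against Serum, and from 822 to 2522 and 1251 to 3101 in Paused against 2i. The F test then called 1243 to 7131. Members called lower in Paused against Serum ranged from 0 to 4, members called higher in 2i against Serum from 5 to 7, and members called lower in Paused against 2i stayed at 7. The 3 libraries per condition limit which differences can be called, and the unknown depth leaves low genes such as Atf3 in Paused without a counting error.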
